A study of Papio anubis with 24 samples.

Results

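The miR-379 to miR-656 cluster is a long array of microRNA (miRNA) hairpins in the imprinted 14q32 domain, named here after its position in the human genome. It was followed in the small RNA of endometriotic lesions and eutopic endometrium (the lining inside the uterus) of baboons, Papio anubis. Its members were taken by name and not by a measured value, as 49 mature miRNAs from hairpins between miR-379 and miR-656. Earlier results of these data were known when the list was chosen. All 49 stood in the count table of 2656 mature miRNAs. Of these, 44 reached at least 2 CPM (counts scaled to a common library total) in at least 2 of the 24 libraries, as did 527 miRNAs in all. The table named the miRNAs after human sequences, so that a baboon miRNA that differs from its human counterpart can be undercounted.

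The study took a lesion and the eutopic endometrium from each of 12 animals. Spontaneous lesions (n = 4) and their eutopic endometria (n = 4) came from baboons that had developed endometriosis on their own. Induced lesions (n = 8) and their eutopic endometria (n = 8) came from baboons in which menstrual tissue had been placed into the peritoneal cavity over consecutive cycles, and both tissues were taken 15 months after induction. All eutopic endometria therefore came from animals with disease, and no healthy endometrium was analysed here. Each library is whole tissue, in which fewer cells of a type and less RNA per cell cannot be told apart.

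The cluster lies in the DLK1-DIO3 domain, where the protein-coding genes DLK1, RTL1 and DIO3 are expressed from the paternal chromosome and the noncoding RNAs from the maternal one. Its hairpins are cut from long maternal transcripts, so that many miRNAs can share 1 source of RNA and are then matured and degraded one by one. In mammals the array is known for its high expression in placenta, embryo and brain and in mesenchymal cells, and for low expression in most adult epithelia. Several members are near-identical in sequence, among them miR-376a, miR-376b and miR-376c, miR-487a and miR-487b, and miR-323a and miR-323b. How reads that match more than 1 of them were divided is not given in the sources used here, and their separate values are uncertain to that extent.

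The libraries held 2592999 to 7573913 miRNA counts, and 3 counts, the smallest number treated as a level, were worth 0.396 to 1.16 CPM. CPM values below were scaled with TMM factors, which adjust for miRNAs that take up a large part of a library. miR-143-3p, a miRNA of smooth muscle, took 13.9% to 71.7% of the counts of lesions and 4.88% to 31.0% of those of eutopic endometria. The summed epithelial markers (10 of 11 measured, miR-205-5p below the minimum) stood at 338 to 9443 CPM in lesions and 7860 to 23946 CPM in eutopic endometria, and were lower in the lesion of all 12 animals. The 4 smooth muscle markers were higher in 11 of 12 lesions, with a median ratio of 4.95, and the 4 measured striated muscle markers were higher in 11 of 12, with a median ratio of 19.8. The 5 fibroblast markers had lesion to eutopic ratios of 0.564 to 1.35. The 4 erythroid markers were higher in 12 of 12 lesions (median ratio 4.65), the 2 endothelial markers in 11 (2.06) and the 6 leukocyte markers in 10 (1.84).

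A few members carried most of the signal. hsa-miR-411-5p averaged 2664 CPM over the 24 libraries, and hsa-miR-381-3p, hsa-miR-409-3p, hsa-miR-654-3p and hsa-miR-410-3p (the prefix, for human, is left out below) averaged 748, 541, 527 and 509 CPM. No other member exceeded miR-889-3p at 81.9 CPM, and the lowest measured one, miR-539-5p, averaged 1.11 CPM. Levels of different miRNAs are also set by how well each is captured in a small RNA library, and differences between them are given for orientation. The order of miR-409-3p, miR-654-3p and miR-410-3p is not resolved, since it changed between libraries. In the eutopic endometrium of PA7254 they stood at 760, 828 and 810 CPM, and in that of PA7539 at 1075, 713 and 1047 CPM. miR-411-5p lay above every other member in all groups. Its lowest level was 970 CPM, in the lesion of PA7696, where miR-381-3p stood at 363 CPM. The minimum of 2 CPM was taken on library totals. Just inside it, the second highest library of miR-539-5p stood at 3.30 CPM, and just outside it that of miR-1197 stood at 1.66 CPM. miR-154-3p, miR-541-3p, miR-544a and miR-300 also stayed below the minimum. miR-300 had 2 counts in all libraries together, and miR-1197 had 60.

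Summed over the 44 measured members, the cluster was lower in the lesion than in the eutopic endometrium of 11 of 12 animals. The 4 spontaneous lesions stood at 4367 CPM in PA5655, 2972 in PA6303, 4172 in PA6627 and 4289 in PA6762. The matching eutopic endometria stood at 6149, 6658, 6898 and 6495 CPM in the same animals, so that the tissues did not overlap on this scale. As a share of library counts they did overlap. The lesion of PA6627 held 0.549%, above the eutopic endometria of PA5655 (0.443%) and PA6303 (0.512%). The induced lesions ranged from 1812 to 9067 CPM with a median of 5406, and their eutopic endometria from 4247 to 9054 CPM with a median of 7481. These overlapped. The lesion of PA7255 stood as high as its own endometrium and was the highest library of the series.

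**Figure D1:**
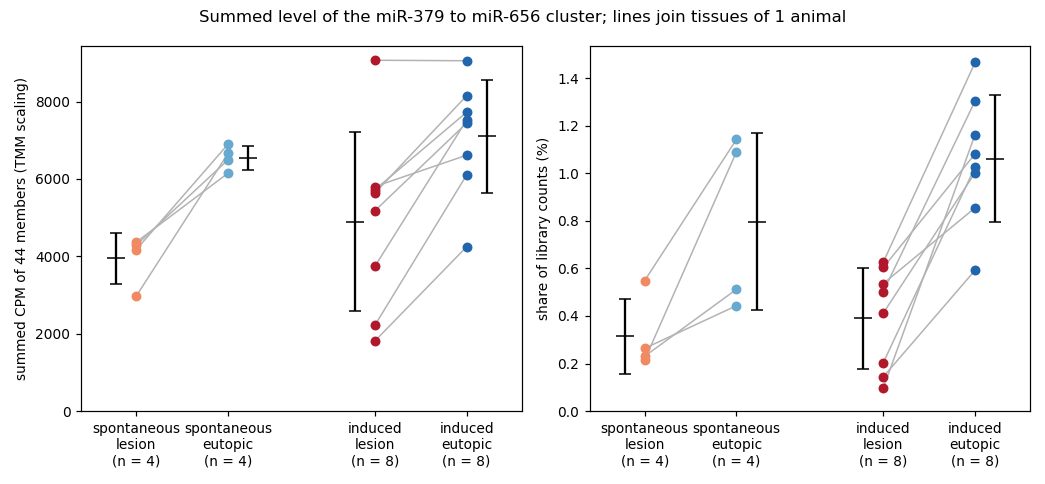
Summed level of the 44 measured members in each library, as TMM-scaled CPM (left) and as a percent of library counts (right), with grey lines joining the lesion and eutopic endometrium of 1 animal and bars for the mean and SD of each group. The lines fall towards the lesion in 11 of 12 animals for CPM and in 12 of 12 for the share of counts.

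The ratio of lesion to eutopic CPM had a median of 0.676. It was lowest in PA7539 (0.363), PA7696 (0.427), PA6303 (0.446) and PA7524 (0.497) and highest in PA7255 (1.001). Without the most abundant member, miR-411-5p, the median ratio was 0.660. As a plain share of library counts the ratio was lower, with a median of 0.419 and a range of 0.0836 to 0.627. It was below 1 in all 12 animals, and miR-143-3p fills part of the total on this scale. Within each animal, 28 to 42 of the 44 members were lower in the lesion, against 48.4% to 56.5% of all 527 miRNAs. The fewest were lower in PA7255 and the most in PA7524 and PA7539. In PA7539 the ratio of epithelial markers was 0.0579 and that of smooth muscle markers 62.5, and in PA7255 they were 0.268 and 14.9. The order of animals was not the same throughout. PA7696, with a cluster ratio of 0.427, had marker ratios of 0.343 and 5.37. PA6762, with a cluster ratio of 0.660, had 0.0391 and 15.3. The part of tissue composition in the lower level of the cluster was not tested.

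**Figure D2:**
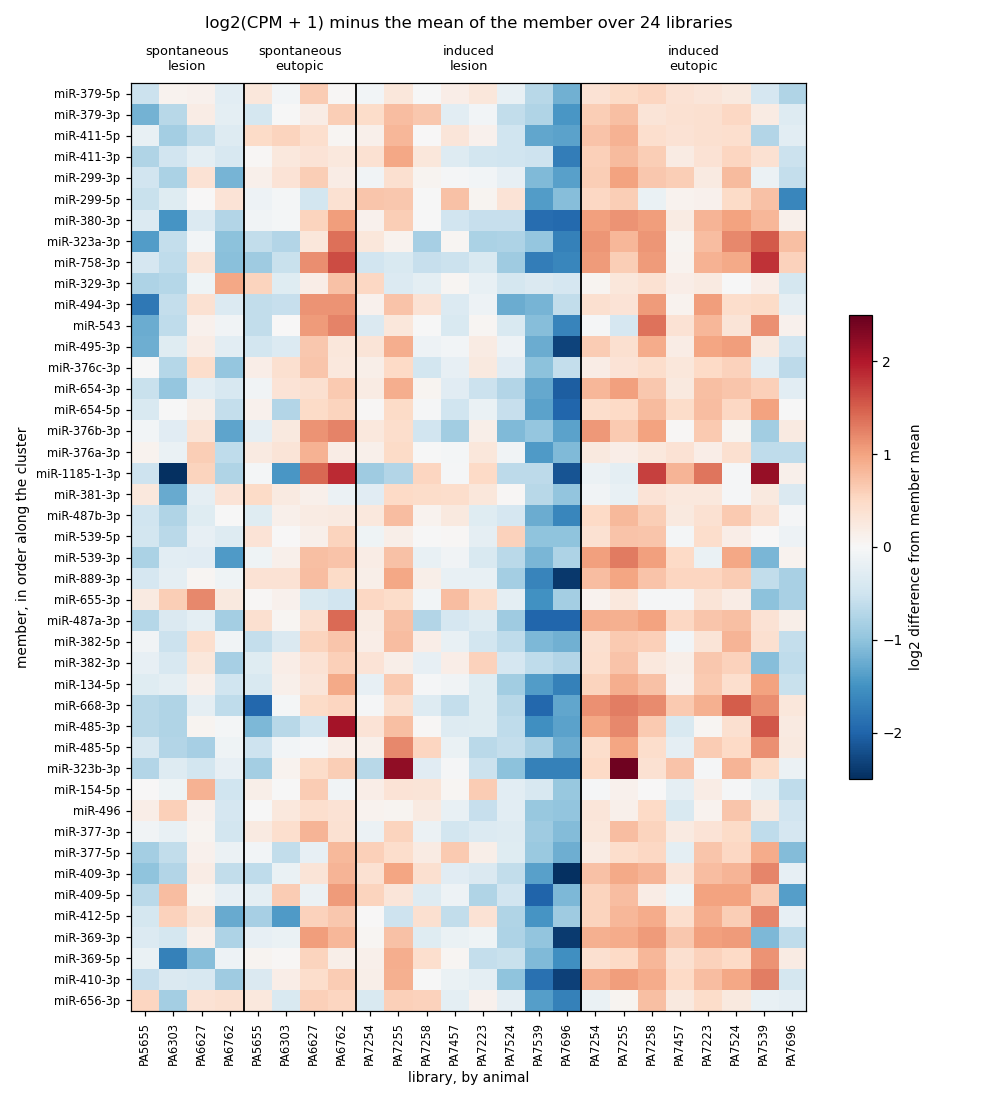
Level of each measured member (rows, in order along the cluster) in each library (columns, grouped by disease and tissue and named by animal), as log2(CPM + 1) minus the mean of that member over the 24 libraries. Blue columns of the lesions of PA7539 and PA7696 and the red of most eutopic columns show members moving together, and PA7255 is red in both tissues. PA7696 was low in both tissues. The mean log2 CPM of the members in its eutopic endometrium was 3.66, the lowest of all eutopic endometria, whose median was 4.55.

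Over all 12 pairs, 31 of the 44 members were lower in lesions and 0 were higher at an adjusted p under 0.05 (quasi-likelihood test of edgeR, blocked by animal, Benjamini-Hochberg over all miRNAs tested). Of all 527 miRNAs, 27.1% were lower and 25.6% higher by the same call, 52.8% in all. The median log2 fold change of the members was −0.77, with a range of −1.66 to 0.48, and that of all miRNAs was −0.14. A negative value stood for 42 of 44 members, and for 55.6% of all miRNAs. Under library totals the median of all miRNAs moved to −0.98 and that of the members to −1.58, so that the members lay below the median of all miRNAs on either scale. The lesion was lower in each of the 12 animals for 11 members, which is a share to be read against 7.02% of all miRNAs. These were miR-411-5p, miR-299-3p, miR-380-3p, miR-654-3p, miR-1185-1-3p, miR-487b-3p, miR-487a-3p, miR-539-3p, miR-889-3p, miR-377-3p and miR-410-3p. For no member, as for 0% of all miRNAs, did every lesion lie below every eutopic endometrium.

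Among the abundant members, miR-411-5p, which is edited in its seed in human vascular cells, had 2152, 1362, 1606 and 1977 CPM in the spontaneous lesions of PA5655, PA6303, PA6627 and PA6762, against 3430, 3629, 3304 and 2547 CPM in their eutopic endometria. The induced lesions had 970 to 4356 CPM with a median of 2561, against 1472 to 4514 CPM with a median of 3255 in the induced eutopic endometria. Spontaneous tissues did not overlap and induced ones did. The log2 fold change over 12 pairs was −0.62 (standard error 0.14, edgeR adjusted p = 0.00207), the smallest fall among those of the 5 most abundant members that passed.

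miR-654-3p had 317, 239, 388 and 356 CPM in the spontaneous lesions, against 439, 592, 621 and 743 CPM in their eutopic endometria. It had 112 to 885 CPM (median 353) in induced lesions, against 389 to 954 CPM (median 756) in induced eutopic endometria. Each animal was lower in its lesion, by a log2 fold change of −0.98 (standard error 0.17, edgeR adjusted p = 5.14e-04). miR-410-3p had 291, 336, 329 and 234 CPM in the spontaneous lesions, against 336, 483, 588 and 669 CPM in their eutopic endometria, and 84.7 to 800 CPM (median 376) in induced lesions, against 317 to 1047 CPM (median 815) in induced eutopic endometria. Its log2 fold change was −1.12 (standard error 0.24, edgeR adjusted p = 0.00156). The lesions of PA7539 and PA7696 were the lowest for both, the induced groups overlapped, and the lesion of PA7255 lay close to its endometrium. miR-409-3p had 230, 278, 520 and 298 CPM in the spontaneous lesions, against 297, 408, 576 and 834 CPM in their eutopic endometria, and a median of 368 CPM in induced lesions, against 808 CPM in induced eutopic endometria. It was lower in 11 of 12 lesions (log2 fold change −0.96, standard error 0.25, edgeR adjusted p = 0.00512).

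The largest falls among members of at least 10 CPM were those of miR-1185-1-3p and miR-380-3p. miR-1185-1-3p had 7.501, 0.784, 16.9 and 6.29 CPM in the spontaneous lesions, against 10.8, 3.45, 32.1 and 43.3 CPM in their eutopic endometria. In induced disease it had 1.75 to 16.7 CPM (median 6.76) in lesions, against 9.28 to 54.0 CPM (median 16.7) in eutopic endometria. It was lower in all 12 lesions, and its level varied widely between animals. The log2 fold change was −1.37 (standard error 0.27, edgeR adjusted p = 9.11e-04). miR-380-3p had 18.8, 8.10, 18.8 and 14.1 CPM in the spontaneous lesions, against 22.7, 23.5, 35.9 and 50.9 CPM in their eutopic endometria. In induced disease it had 5.53 to 37.6 CPM (median 16.4) in lesions, against 26.6 to 53.7 CPM (median 47.0) in eutopic endometria. The log2 fold change was −1.32 (standard error 0.22, edgeR adjusted p = 4.08e-04).

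The other members of the 12 most abundant that passed fell by less than miR-410-3p. miR-134-5p, which in rat neurons limits dendritic spine growth through Limk1, averaged 42.7 ± 17.8 CPM in lesions and 73.0 ± 23.4 CPM in eutopic endometria (SD, n = 12 each). The log2 fold change was −0.81, and the lesion was lower in 11 of 12 animals. miR-487b-3p, of which inhibition in mice favours vessel growth after ischaemia, averaged 49.5 ± 21.8 CPM in lesions and 71.9 ± 15.2 CPM in eutopic endometria (SD, n = 12 each). Its change was −0.64 on the log2 scale, in the same direction in all 12 animals. miR-889-3p (log2 fold change −0.79), miR-299-3p (−0.75), miR-369-5p (−0.90) and miR-369-3p (−0.92), which binds an AU-rich element of the TNF mRNA, were lower in at least 11 of 12 lesions. miR-376c-3p, an inhibitor of the activin receptor-like kinase ALK7, averaged 31.5 ± 11.5 CPM in lesions and 43.1 ± 9.82 CPM in eutopic endometria (SD, n = 12 each). Its log2 fold change of −0.50 (edgeR adjusted p = 0.0179) no longer passed without the low-count filter, without the animal block, or without PA7255, PA7524, PA7539 and PA6762, whose lesions had scaling factors under 0.6 (edgeR adjusted p up to 0.0799).

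Not all members were lower with TMM factors. miR-381-3p, the second most abundant, had 861, 297, 612 and 905 CPM in the spontaneous lesions, against 996, 833, 780 and 645 CPM in their eutopic endometria. In induced disease it had 363 to 1010 CPM (median 804) in lesions, against 558 to 908 CPM (median 779) in eutopic endometria. The tissues overlapped throughout, and 6 of 12 animals were lower in the lesion. The log2 fold change was −0.18 (standard error 0.18, edgeR adjusted p = 0.386). miR-154-5p, induced by TGF-β in lung fibroblasts, had 14.1, 12.8, 26.3 and 9.58 CPM in the spontaneous lesions, against 15.4, 13.8, 22.0 and 13.0 CPM in their eutopic endometria. In induced disease it had 6.69 to 22.2 CPM (median 15.0) in lesions, against 8.59 to 15.9 CPM (median 13.6) in eutopic endometria. Its log2 fold change was 0.04 (standard error 0.15, edgeR adjusted p = 0.840), with a sign that turned under library totals (−0.81) and with TMM factors computed without the members (−0.04). miR-299-5p averaged 27.8 ± 11.7 CPM in lesions and 29.0 ± 10.2 CPM in eutopic endometria (SD, n = 12 each), and miR-377-5p averaged 9.77 ± 4.31 CPM in lesions and 12.3 ± 4.98 CPM in eutopic endometria (SD, n = 12 each). Their log2 fold changes were −0.06 and −0.33, and neither passed with TMM factors. With library totals, miR-381-3p, miR-154-5p, miR-299-5p and miR-377-5p all passed as lower (edgeR adjusted p = 0.0012, 0.0163, 0.0306 and 0.0146). miR-655-3p, a repressor of ZEB1, had the only other positive value, 0.48 (standard error 0.29, edgeR adjusted p = 0.173), at a mean of 2.10 CPM.

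**Figure D3:**
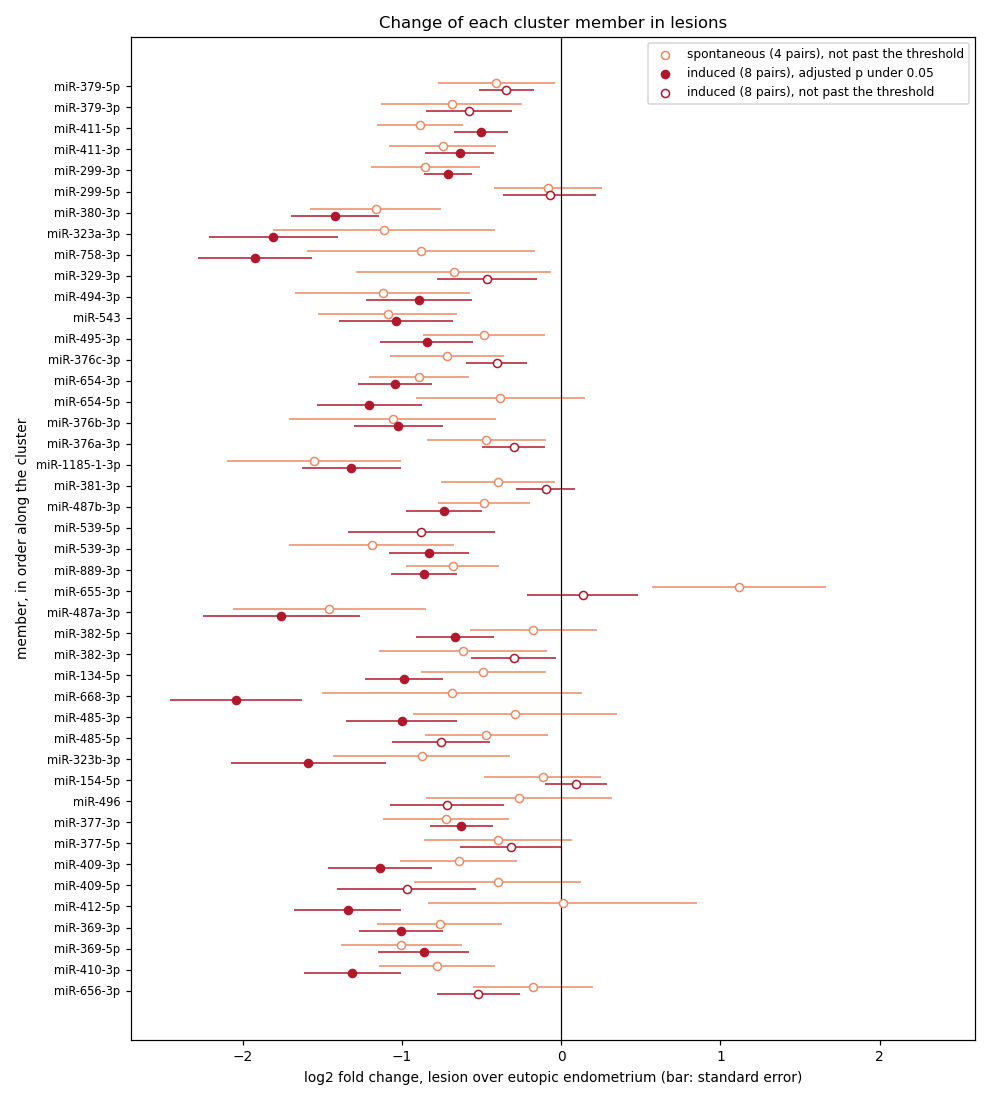
Log2 fold change of each measured member, lesion over eutopic endometrium, in spontaneous disease (4 pairs) and in induced disease (8 pairs), with standard errors as bars and filled points for an adjusted p under 0.05. Nearly all points lie left of 0 in both diseases, filled points occur in induced disease for 28 members, and the bars of spontaneous disease are wider.

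In the 4 spontaneous pairs, 0 of 43 tested members passed, where 0.206% of 485 miRNAs did. At an unadjusted p under 0.05 there were 8 members, all lower, against 10.5% of all miRNAs lower. These were miR-411-5p, miR-299-3p, miR-380-3p, miR-543, miR-654-3p, miR-1185-1-3p, miR-487a-3p and miR-369-5p. edgeR-robust and DESeq2's Wald test also called 0 members, where they called 45 and 48 miRNAs in all. Without the low-count filter miR-1185-1-3p passed (edgeR adjusted p = 0.0436). The median log2 fold change of the members was −0.68 and that of all miRNAs −0.09. Lesions were lower in all 4 animals for 20 of the 44 members, against 17.5% of all miRNAs, and every lesion lay below every eutopic endometrium for 10 members, against 8.16%. miR-655-3p stood apart, at 2.34, 3.40, 5.58 and 2.39 CPM in the spontaneous lesions against 1.92, 2.07, 1.202 and 1.06 CPM in their eutopic endometria. These levels rest on 5 to 38 counts a library, and its log2 fold change was 1.12 (standard error 0.55, edgeR adjusted p = 0.286).

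In the 8 induced pairs, 28 of 44 members were lower and 0 higher, where 23.1% of 507 miRNAs were lower and 20.7% higher, 43.8% in all. The median log2 fold change of the members was −0.85 and that of all miRNAs −0.14. Lesions were lower in all 8 animals for 20 members, against 14.6% of all miRNAs. The steepest falls were those of members of low level, miR-668-3p (log2 fold change −2.04), miR-758-3p (−1.93), miR-323a-3p (−1.81) and miR-487a-3p (−1.76). miR-758-3p, known to repress the cholesterol transporter ABCA1, had 1.28 to 4.85 CPM (median 4.18) in lesions, against 7.11 to 25.5 CPM (median 13.3) in eutopic endometria. It alone did not overlap between the induced tissues, where 2.47% of all miRNAs did not. The count of 28 members rested on the pairing and on several animals. It was 12 without the animal block, 16 without PA7524, 18 without PA7223 and 18 without the animals of a low lesion scaling factor. The share of all miRNAs called in these fits is not given here, so that the drop is not read as particular to the members. miR-411-5p (log2 fold change −0.50, edgeR adjusted p = 0.0341) was among those lost without PA7524 or without PA7223. Its induced call was lost in 9 of 19 alternatives (edgeR adjusted p up to 0.276). These included edgeR-robust, no low-count filter, no animal block, and leaving out PA7254 or PA7696.

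No member passed the test between the diseases. The change in lesions of spontaneous relative to induced disease passed for 0 of 44 members, as for 0% of 527 miRNAs. An unadjusted p under 0.05 was found for 0 members, against 3.04% of all miRNAs. The median difference of the members was 0.17 on the log2 scale, with a median standard error of 0.49, so that differences of that size could not be resolved. Spontaneous lesions differed from induced lesions in 0 of 41 members, as in 0% of 467 miRNAs, with a median log2 fold change of −0.12. Here 0 members had an unadjusted p under 0.05, against 7.92% of all miRNAs. Spontaneous eutopic endometria differed from induced ones in 0 of 44 members, as in 0% of 507 miRNAs, with a median of −0.19. There 2 of 44 members had an unadjusted p under 0.05, against 10.7% of all miRNAs. miR-668-3p averaged 2.96 ± 2.15 CPM in spontaneous (SD, n = 4) and 7.11 ± 2.004 CPM in induced eutopic endometria (SD, n = 8), and miR-485-5p averaged 14.9 ± 3.02 CPM in spontaneous (SD, n = 4) and 24.1 ± 7.26 CPM in induced eutopic endometria (SD, n = 8). edgeR-robust called 3, 7 and 11 miRNAs in these 3 comparisons and DESeq2 called 3, 1 and 3, with 0 members among them.

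To compare the members with each other, the libraries were also scaled on the members alone, so that a value of 0 means a change equal to that of the cluster. On this scale 13 of 44 members departed from the cluster over 12 pairs, where 59.2% of all miRNAs did. The scaling itself centres the members near 0 (median log2 fold change 0.06) and shifts all miRNAs (median 0.71). A lower share among members therefore follows from the scaling, here and in the pairs of each disease below, and is no result about them. The adjustment also ran over all of these shifted miRNAs, which makes it mild for the members. Of the members, 15 had an unadjusted p under 0.05 and 13 passed, miR-1185-1-3p at an unadjusted edgeR p of 0.0244. No adjustment over the members alone was made, so that the weaker departures are uncertain. Higher than the cluster were miR-655-3p (log2 1.22), miR-154-5p (0.89), miR-299-5p (0.78), miR-381-3p (0.69), miR-377-5p (0.52), miR-376a-3p (0.50), miR-379-5p (0.50) and miR-656-3p (0.45). Lower than the cluster were miR-487a-3p (−0.89), miR-758-3p (−0.77), miR-323a-3p (−0.75), miR-1185-1-3p (−0.53) and miR-380-3p (−0.48). miR-655-3p, miR-154-5p, miR-299-5p, miR-381-3p, miR-376a-3p and miR-380-3p passed whichever animal was left out, whereas the others were lost in at least 1 of these fits. The count was 7 without PA7258 and 8 without PA6762. In the induced pairs 8 of 44 members departed, against 51.7% of all miRNAs, and 5 did without PA7223 or without PA7524. In the spontaneous pairs 0 did, against 0.619%.

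**Figure D4:**
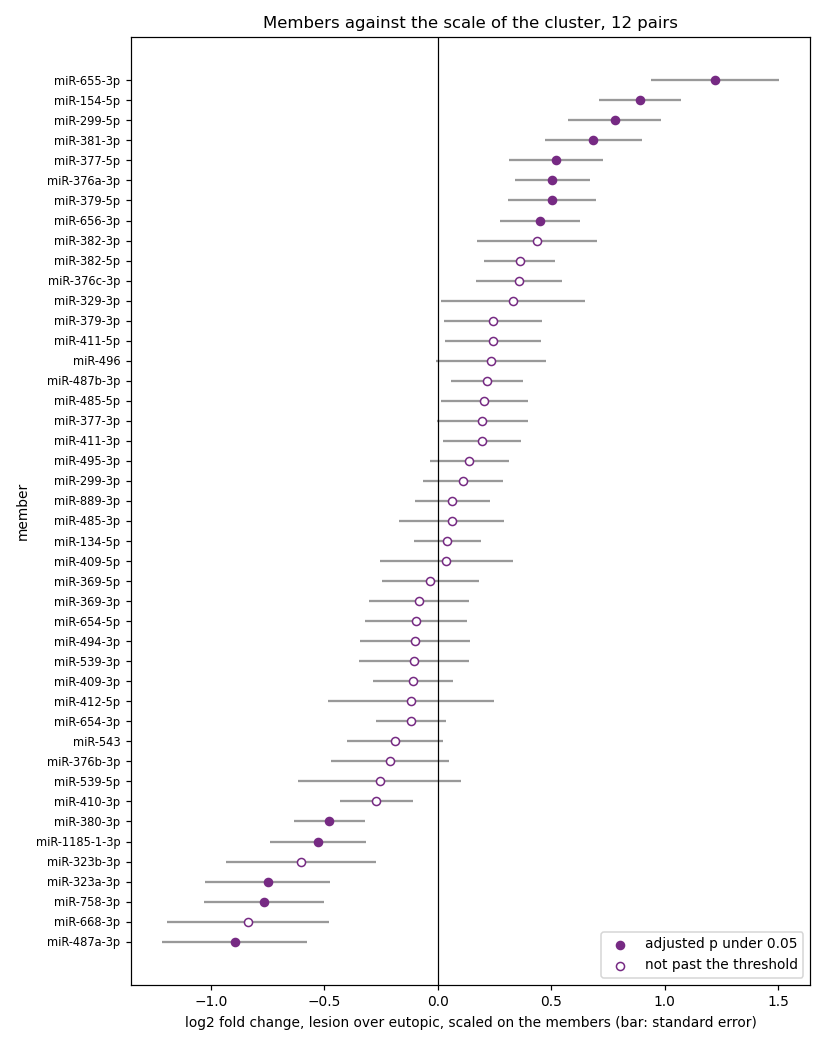
Log2 fold change of each measured member over 12 pairs, lesion over eutopic endometrium, with libraries scaled on the members alone, standard errors as bars and filled points for a p under 0.05 after adjustment over all miRNAs. Members at the top fell less than the cluster did and members at the bottom fell more, from 1.22 for miR-655-3p to −0.89 for miR-487a-3p.

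The members also varied together from animal to animal. After the mean of each of the 4 groups was removed, the median Pearson's r between log2 CPM of 2 members was 0.623 over 946 pairs and 24 libraries, and 99.5% of the pairs were positive. Among all 138601 pairs of measured miRNAs the median was 0.00, and between a member and a measured miRNA on neither the member list nor the list of upstream miRNAs it was −0.07. The points share libraries, depth and scaling, and the values are given as a description. miR-654-3p (median r with the other members 0.748), miR-889-3p (0.744) and miR-382-5p (0.736) were closest to the rest. miR-329-3p (0.296), miR-1185-1-3p (0.348) and miR-381-3p (0.438) were the farthest, of which miR-329-3p averaged only 1.62 CPM. The median was 0.739 over lesions alone and 0.478 over eutopic endometria alone. It was 0.454 without PA7539 and PA7696, whose lesions held the lowest levels relative to their endometria. Over the 12 differences between lesion and eutopic endometrium it was 0.424, against 0.01 for all pairs. Members had a median r of 0.2996 with epithelial markers, −0.42 with smooth muscle markers, −0.40 with striated muscle markers, 0.07 with fibroblast markers, 0.236 with erythroid markers, −0.16 with endothelial markers and 0.04 with leukocyte markers.

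**Figure D5:**
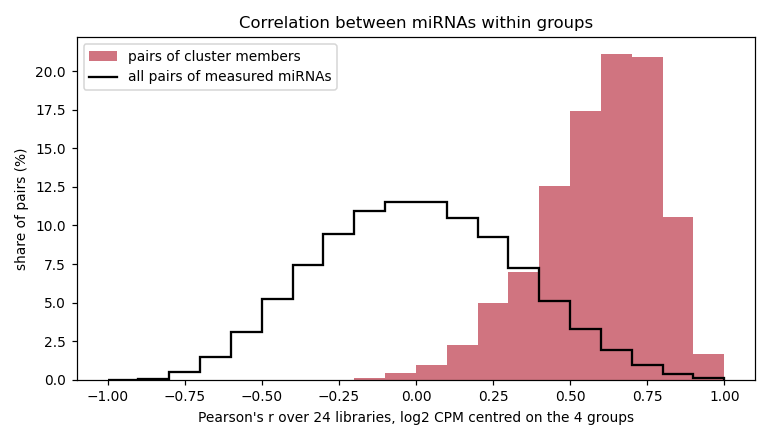
Share of pairs (percent) by Pearson's r between log2 CPM of 2 miRNAs over 24 libraries after removal of the 4 group means, for the 946 pairs of members (filled) and the 138601 pairs of all measured miRNAs (line). Member pairs centre on a median of 0.623 and all pairs on 0.00.

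Both arms were among the measured members for 10 hairpins, and their ratio within a library does not depend on scaling. The ratio of the 5p to the 3p arm differed between tissues for 1 of these, miR-299, where 16.7% of 162 hairpins did (limma, Benjamini-Hochberg over all hairpins). Its log2 5p to 3p ratio was −1.45, −0.88, −1.73 and 0.16 in the spontaneous lesions of PA5655, PA6303, PA6627 and PA6762, against −1.61, −1.76, −2.47 and −1.15 in their eutopic endometria. In induced disease it ranged from −1.71 in PA7539 to −0.57 in PA7254 over lesions, against −2.48 in PA7696 to −0.47 in PA7539 over eutopic endometria. PA7539 was the only animal with a lower ratio in the lesion. The mean was −1.04 ± 0.54 in lesions and −1.70 ± 0.56 in eutopic endometria (SD, n = 12 each), a change of 0.66 (standard error 0.20, limma adjusted p = 0.0376). This call was lost without the animal block and when any of 9 of the 12 animals was left out. Its arms are the pair given above, miR-299-3p with a log2 fold change of −0.75 and miR-299-5p with −0.06. A further 4 of the tested hairpins had 1 arm among the members and the other measured outside them. Of these, miR-376a passed in the opposite direction, with a log2 5p to 3p ratio of 0.79 ± 0.67 in lesions and 1.62 ± 0.88 in eutopic endometria (SD, n = 12 each), a change of −0.84 (standard error 0.22, limma adjusted p = 0.0155) that was positive in 1 of 12 animals. Near-identical miR-376 sequences can share reads, so that this ratio is uncertain, and miR-134, miR-376c and miR-889 did not pass. The median size of the change was 0.14 over the 10 hairpins and 0.27 over all 162. miR-411 and miR-654 kept opposite arms in front, with log2 5p to 3p ratios of 6.97 ± 0.46 and −6.15 ± 0.42 in lesions and 6.93 ± 0.41 and −6.20 ± 0.44 in eutopic endometria (SD, n = 12 each).

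The upstream miRNAs of the same domain, which lie between DLK1 and the cluster and include several antisense to RTL1, moved in the same direction. Of 18 named, 16 were measured, and 12 were lower and 0 higher over 12 pairs, where 27.1% of all miRNAs were lower. In induced pairs 9 of 16 were lower, where 23.1% of all were, and in spontaneous pairs 0 of 15, where 0% of all were. Their median log2 fold change was −0.77 over 12 pairs, beside −0.14 for all miRNAs, −0.92 in induced pairs, beside −0.14, and −0.57 in spontaneous pairs, beside −0.09. miR-127-3p, which is antisense to RTL1 and was more abundant than any member, averaged 6129 ± 3098 CPM in lesions and 9324 ± 2878 CPM in eutopic endometria (SD, n = 12 each). It fell by 0.70 on the log2 scale (standard error 0.19, edgeR adjusted p = 0.00771). miR-370-3p (log2 fold change −1.09) and miR-136-5p (−0.75) passed, and miR-136-3p (−0.35, edgeR adjusted p = 0.0574) did not. The median r between a member and an upstream miRNA was 0.583, beside 0.623 between members.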

How the data were processed

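Small RNA from TruSeq libraries was trimmed with Trim Galore 0.3.3 and counted by the authors against human miRNAs of miRBase release 22 with miRDeep2 0.0.7; the deposited values are raw counts. The table lists 168 mature miRNAs once per precursor, of which only the row with most counts entered. Libraries of 1 group were no copies of each other (chi-square per degree of freedom at least 126 over 68 pairs). Animal identifiers in the labels paired both tissues; their deviations from group means correlated at −0.14 to 0.48 (above 0.1 in 7 of 12 animals). p-values were obtained in R 4.3.3 with edgeR 4.0.16 (TMM, robust quasi-likelihood, at least 2 CPM in at least 2 of the libraries compared, animal as a block between tissues) and limma 3.58.1 (arm ratios, 1 count added), with a threshold of 0.05. The tests between tissues were also run on simulated data, with results not given here. For arm ratios the simulated animals did not differ, so that the animal block was not checked. Standard errors beside edgeR fold changes were back-calculated, as the size of the log2 fold change over the square root of the test's F statistic. The floor of 3 counts covers counting error only. Members and lists were chosen with earlier results of these data known. Named members were the 12 of highest CPM, the 4 lowest and 4 highest fold changes from 10 CPM, both arms of a called hairpin and those at the filter's edge; miR-655-3p, miR-758-3p and others outside this rule were singled out afterwards, from their values. Alternatives were DESeq2 1.42.0 factors and Wald test, library totals, TMM without members, no filter, filterByExpr, summed precursors, edgeR-robust, no block and each animal left out. Scaling on the members and leaving out groups of animals were added after seeing the data.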

Additional observations from a re-analysis of the deposited data

Results flagged for a closer look

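Of 124 groups of values examined for a library far from the others of its group, 6 were picked out, in 4 libraries, where chance alone picks about 1 in 20 groups. The summed level of the members in the spontaneous lesion of PA6303 was 2972 CPM, with the other 3 spontaneous lesions at 4172 to 4367 CPM. As a share of library counts the spontaneous lesion of PA6627 stood apart instead, at 0.549% with the others at 0.215% to 0.264%, so that the library that stands apart depends on the scale.

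In the induced eutopic endometrium of PA7539, the smallest library at 2592999 counts, 3 hairpins had unusual log2 5p to 3p ratios. The ratio was 5.82 for miR-411, with the other 7 induced eutopic endometria at 6.72 to 7.26. It was 3.77 for miR-382, with the others at 1.57 to 2.33, and 1.84 for miR-377, with the others at −0.61 to 0.51. In the spontaneous eutopic endometrium of PA6762 the ratio of miR-485 was −1.49, with the others at 1.02 to 1.17, and miR-485-3p stood at 50.7 CPM in that library. No cause of these values was tested.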

How the results depend on the processing

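Calls over 12 pairs stayed within 1.5 times the main count under every alternative run (25 to 43 of 44 members). With library totals, 43 of 44 members over 12 pairs and 42 of 44 in induced pairs were lower, and over all miRNAs 309 were lower and 38 higher, against 143 and 135 with TMM; the log2 ratio of the summed level was −1.25 in place of −0.57 and the median r was 0.800, with all pairs at 0.345. Without the replicate block, induced calls numbered 12 and called hairpins 0. Leaving out 1 animal gave 16 to 29 induced calls, 0 to 1 hairpins, and 7 to 13 (12 pairs) and 5 to 10 (induced) members that departed from the cluster. Without the animals of a low lesion scaling factor, induced calls numbered 18. With no filter, spontaneous calls numbered 1. Apart from library totals, these counts stand without the share of all miRNAs called in the same fits. They are not read as particular to the members. The median r was 0.478 over eutopic endometria and 0.454 without PA7539 and PA7696. Values near 0 with TMM factors turned sign, and the cause was not tested. For miR-154-5p the log2 fold change was −0.88 (induced) and −0.81 (combined) with library totals and −0.040 (combined) with TMM without members; it was 0.017 (spontaneous) without animals of a low factor, and leaving out 1 animal gave −0.021 to 0.077 (combined) and −0.23 to 0.017 (spontaneous). For miR-299-5p it was 0.34 (induced) and 0.17 (combined) without animals of a low factor, 0.12 (induced) and 0.039 (combined) without PA7539 and PA7696, and leaving out 1 animal gave −0.18 to 0.19 (induced), −0.26 to 0.13 (spontaneous) and −0.13 to 0.083 (combined). For miR-381-3p (induced) it was 0.12 without PA7539 and PA7696, and −0.18 to 0.020 with 1 animal left out. For miR-377-5p (induced) it was 0.11 without animals of a low factor. Depth limits members near 1 CPM, which rest on a few counts per library, and 4 spontaneous pairs.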

Other observations

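miR-323b-3p, singled out after its values were seen, stood apart in both tissues of PA7255. It stood at 13.8 CPM in the lesion and 16.4 CPM in the eutopic endometrium of that animal. In the other 11 animals it stood at 0 to 2.12 CPM in lesions and 0.769 to 4.74 CPM in eutopic endometria. miR-323a-3p, which it closely resembles, stood at 4.36 CPM in the lesion of PA7255, against 0.582 to 5.18 CPM in the other lesions, and at 8.01 CPM in its eutopic endometrium, against 2.07 to 13.8 CPM in the others. miR-323b-3p was lower in the lesion of 11 of 12 animals, PA7255 among them, with a log2 fold change of −1.37 over 12 pairs (edgeR adjusted p = 0.00697) and −1.59 in induced pairs (edgeR adjusted p = 0.022). The source of the high value was not tested.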
